A study of Mus musculus with 6 samples.

Results

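The genes described here are 31 genes of sterol and fatty acid synthesis, most of them known targets of the sterol regulatory element-binding proteins (SREBPs), measured by RNA sequencing in bone-marrow-derived macrophages (BMDMs) with and without CITED2. They were chosen by name from the pathway and not by a cutoff on their values, though earlier results of these data were known. All 31 were among the 22248 genes listed, and all 31 had a mean FPKM (fragments scaled by transcript length and by the total of the library) of at least 1 over the 6 libraries, as did 11687 genes in all. Each of the 31 averaged at least 1 FPKM in both groups, so none was tested only because it was high in 1 group. The libraries came from C57BL/6 mice labelled as 10 weeks old, while the study's methods name a younger age for the marrow donors. Control BMDMs (n = 3) carried Lyz2cre alone, and CITED2-deficient BMDMs (n = 3) carried Cited2 fl/fl with Lyz2cre, so the Cre recombinase expressed from the myeloid lysozyme locus was present in both groups. The marrow cells were differentiated with macrophage colony-stimulating factor and were not stimulated further, and the comparison asked what loss of this transcriptional coregulator does to the resting macrophage. Nothing in the labels says how many animals gave each library, so the p-values measure the spread between these libraries, which may be technical.

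SREBPs are made as membrane proteins of the endoplasmic reticulum, where SCAP, the sterol-sensing escort, carries them to the Golgi for cleavage when sterols are scarce and INSIG proteins hold the complex back when sterols are plentiful. The freed domain enters the nucleus and switches on the enzymes of the mevalonate, cholesterol and fatty acid routes. SREBP-2, encoded by *Srebf2*, is known mainly for the sterol genes, and SREBP-1, encoded by *Srebf1*, for the fatty acid genes and as a target of the liver X receptors. In macrophages this output is balanced against cholesterol taken up from outside and exported again, and it is tied to inflammatory activation.

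*Cited2* itself was at 71.7, 79.3 and 75.5 FPKM in the control libraries and at 9.27, 7.22 and 7.53 FPKM in the CITED2-deficient libraries, a log2 fold change of -3.09 (adjusted p = 6.57e-09, limma). The control libraries held 17289286 to 18952077 fragments and the deficient libraries 22583995 to 26100410 fragments, as recovered from the FPKM steps, so a given FPKM rests on more fragments in the deficient group. All 8 macrophage markers were present, with summed levels of 5624 to 5694 FPKM in controls and 5287 to 5367 FPKM in deficient libraries. Of these 8, 5 were lower in the deficient libraries, among them *Lyz2* (log2 fold change -1.59) and *Itgam* (-0.81), 1 was higher (*Fcgr1*, 1.48) and 2 did not pass the test. *Lyz2* is the locus that carries the Cre in both groups, and any part of the Cre allele in its fall was not tested. Beside these marker counts and those that follow, 16.7% of all genes tested were higher and 34.6% lower (adjusted p under 0.05, limma). Of 12 fibroblast or stromal markers, 8 averaged at least 1 FPKM in both groups and were higher in the deficient libraries, *Pdgfrb* and *Postn* reached the filter only through the deficient group, and the 12 had summed levels of 66.6 to 83.6 FPKM in controls and 247 to 664 FPKM in deficient libraries, the highest in deficient library 1. The 6 adipocyte markers summed to 7.64 and 11.3 FPKM in control libraries 1 and 2 and to at most 0.235 FPKM in each of the other 4, where the defining marker *Adipoq* was at 0 in 3. Of 9 granulocyte precursor markers, 8 averaged at least 1 FPKM in both groups, of which 1 was higher and 6 were lower in the deficient libraries, and the 9 had sums of 744 to 813 FPKM against 662 to 780 FPKM. The 3 listed megakaryocyte or erythroid markers summed to 313 to 340 FPKM in controls and to 74.3 to 84.7 FPKM in deficient libraries. Nearly all of that sum was *Pf4*, which fell (mean 320 against 75.4 FPKM). *Itga2b* rose (2.90 against 4.08 FPKM), and *Klf1* was not tested (0.168 and 0.106 FPKM). Of 4 cycling markers, 2 fell, or 50% beside 34.6% of all genes tested (sums of 32.5 to 35.6 against 26.3 to 29.9 FPKM). The 6 lymphocyte markers summed to at most 3.18 FPKM in any library, the 5 dendritic cell markers to at most 1.42 FPKM and the 3 mast cell markers to at most 2.53 FPKM. Their part in the results below was not tested. In bulk RNA, fewer cells of a type and less RNA per cell cannot be told apart.

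To show what the SREBPs and their partner factors could read at these genes, the promoter windows of 4 members are given, from *Hmgcs1*, the member with a match to the looser sterol regulatory element, and from *Srebf2*, *Insig1* and *Fasn*, members that passed the test. These 4 were chosen after their values were seen, since no member past the threshold that had a window held a sterol regulatory element match. *Fads1*, also past the threshold, had no window. The sequences are from RefSeq on GRCm38.p6, written 5′ to 3′ on the gene's strand over the 250 bases before its start, and shortened where an exon is annotated in the window. Capitals mark matches on either strand, so that ATTGG stands for a CCAAT box and CCGCCC for a GC box read on the other strand.

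Hmgcs1 (chr13:119690101-119690350, plus strand): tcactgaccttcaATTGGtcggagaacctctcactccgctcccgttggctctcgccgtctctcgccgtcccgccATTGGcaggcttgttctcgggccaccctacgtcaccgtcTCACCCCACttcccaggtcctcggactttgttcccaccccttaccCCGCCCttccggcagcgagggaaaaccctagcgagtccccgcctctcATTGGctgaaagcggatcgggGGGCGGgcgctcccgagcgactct
Srebf2 (chr15:82147019-82147180, plus strand): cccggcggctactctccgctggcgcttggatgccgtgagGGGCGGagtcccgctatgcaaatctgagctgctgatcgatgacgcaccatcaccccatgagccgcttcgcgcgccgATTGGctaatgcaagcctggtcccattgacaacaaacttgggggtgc
Insig1 (chr5:28071162-28071362, plus strand): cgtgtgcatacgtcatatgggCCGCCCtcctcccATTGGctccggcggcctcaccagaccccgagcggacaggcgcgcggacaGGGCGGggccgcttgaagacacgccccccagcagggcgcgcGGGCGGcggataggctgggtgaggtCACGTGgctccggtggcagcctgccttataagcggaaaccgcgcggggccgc
Fasn (chr11:120824548-120824797, minus strand): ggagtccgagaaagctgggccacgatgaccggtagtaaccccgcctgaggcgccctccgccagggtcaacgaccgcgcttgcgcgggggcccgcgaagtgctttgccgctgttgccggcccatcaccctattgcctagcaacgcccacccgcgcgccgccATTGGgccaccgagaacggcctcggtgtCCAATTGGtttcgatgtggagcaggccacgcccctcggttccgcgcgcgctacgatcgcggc

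The looser element, TCACNCCAC, was found in *Hmgcs1*, 137 bases before its start, where 3 CCAAT boxes and 2 GC boxes also lay. The *Insig1* window held the E-box CACGTG, a sequence that SREBPs can also bind, 101 bases before the start, together with 1 CCAAT box and 3 GC boxes. *Fasn* held 3 CCAAT matches, a pair of which share the letters of 1 palindrome, and no GC box. For *Srebf2*, the window held 1 CCAAT box and 4 GC boxes, 3 of them in the part left out as exon.

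A RefSeq window was at hand for 24 of the 31 genes (30 windows), beside 32851 windows of all genes. The classical sterol regulatory element was in no member window and in 0.0731% of all windows, and the looser form was in 1 member against 1.05% of all windows. CCAAT, the site of NF-Y, a factor known to act with the SREBPs, was in 63.3% of the member windows against 33.8% of all. The GC box GGGCGG, which the partner factor Sp1 can bind, was in 73.3% against 32.7% of all. The E-box was in 16.7% against 6.02%, namely in *Dhcr7*, *Hsd17b7*, *Insig1*, *Sc5d* and *Scap*. Both strands were searched for exact matches only, so elements that differ by a base are not counted, and letters alone do not show that a site is used. The windows of all genes were not limited to genes that passed the FPKM filter, as all the members did. No comparison was made with windows of expressed genes alone, so these shares are not read as particular to the pathway.

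Across the 31 genes, the differences between genotypes were small. In all, 6 members passed the test, with *Srebf2* and *Msmo1* higher and *Fads1*, *Fasn*, *Tm7sf2* and *Insig1* lower in CITED2-deficient BMDMs (limma on log2(FPKM + 1), adjusted p under 0.05 over all genes tested). That is 19.4% of the members, beside 51.3% of all genes tested, with 16.7% of all genes higher and 34.6% lower. Nothing particular to the pathway is read from that difference in shares, which has no test. The groups did not overlap for 12 members, 4 with every deficient library above every control and 8 with every deficient library below, whereas 59.9% of all genes tested did not overlap, 19.0% higher and 40.9% lower. The median absolute log2 fold change was 0.13 over the members and 0.20 over all genes tested, with median standard errors of 0.07 for both. No member had an absolute log2 fold change of 0.5 or more on this scale, as 17.5% of all genes tested had. *Scd1* lay just inside that bound at -0.497, with a 95% interval of -1.334 to 0.340. The 95% interval of the difference lay within 0.5 log2 units of 0 on both sides for 26 members and within 0.25 for 13 of them, so for these 26 a larger change on this scale lies outside the interval.

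The scaling between libraries decides the sign of the smaller differences. As deposited, the median log2 fold change over all genes tested was -0.10 and that of the members was -0.045, with 13 members positive and 18 negative. After median-ratio scaling, which sets the typical gene equal between libraries, all genes had a median of -0.007 and the members one of 0.056, with 19 members positive and 12 negative. On that scale 8 members were called higher and 3 lower, beside 44.4% of all genes called, 23.1% higher and 21.3% lower. Quantile normalization called 5 members higher and 3 lower, beside 46.1% of all genes. Of the 6 members called as deposited, 5 were also called after median-ratio scaling, and *Insig1* was the one lost. *Acaca*, *Acly*, *Fdft1*, *Lss*, *Nsdhl* and *Scap* were gained, all of them higher. *Tm7sf2*, *Fasn* and *Fads1* were called in the fit as reported and under each of the 17 alternatives. Among these, limma-voom on fragments recovered from the FPKM steps used rounded values for *Tm7sf2* and *Fads1*, which did not give whole fragments.

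**Figure D1:**
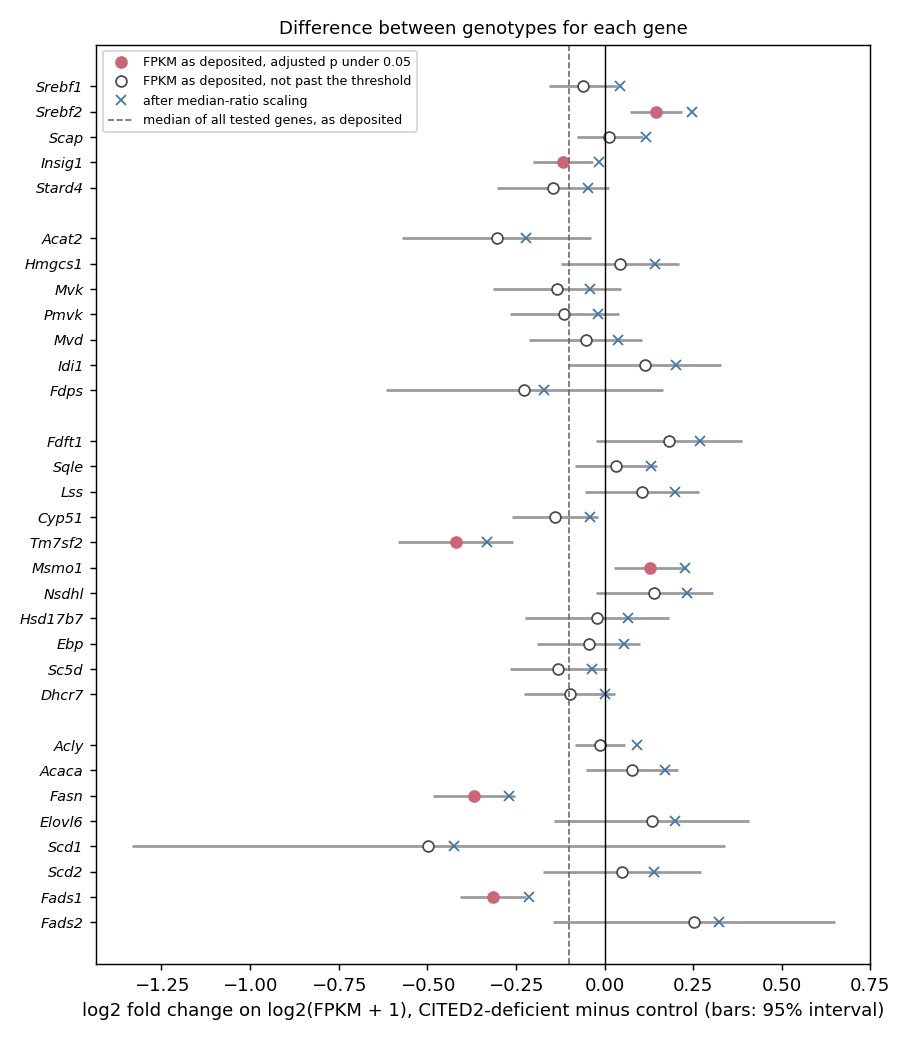
Log2 fold change of each of the 31 genes on log2(FPKM + 1), CITED2-deficient minus control, by role from regulators at the top to fatty acid genes at the bottom. Circles with 95% intervals are the deposited values (filled where the adjusted p was under 0.05), crosses are after median-ratio scaling, and the dashed line is the median of all genes tested (-0.10); *Fads1*, *Fasn* and *Tm7sf2* lie to the left of that line on both scales.

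Among the 5 regulators, *Srebf2* rose and *Insig1* fell as deposited. *Srebf2* (ENSMUSG00000022463, chr15:82147181-82205379, plus strand, mm10) was at 83.5, 83.4 and 84.7 FPKM in the control libraries and at 90.3, 94.3 and 94.0 FPKM in the deficient libraries. The deficient group was thus above the control group without overlap. The mean went from 83.9 ± 0.718 to 92.9 ± 2.21 FPKM (SD, n = 3 per group), a log2 fold change of 0.15 ± 0.03 (SE, adjusted p = 0.00466, limma) as deposited and of 0.25 after median-ratio scaling. The call held with each library left out in turn, and was lost without control libraries 1 and 2 together (0.13, adjusted p = 0.0967, limma), the pair with adipocyte transcripts. That fit has 1 control, which is assumed to vary like the deficient libraries.

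*Insig1* (ENSMUSG00000045294, chr5:28071363-28078662, plus strand), which encodes the protein that retains SCAP and is itself induced by SREBPs, was at 49.1, 48.6 and 49.5 FPKM in controls and at 45.6, 46.3 and 43.5 FPKM in deficient libraries. The groups did not overlap, although the gap was small. The log2 fold change was -0.12 ± 0.04 (SE, adjusted p = 0.0278, limma), and it was -0.02 (adjusted p = 0.763) after median-ratio scaling. Its call was also lost when control library 1, control library 3 or deficient library 3 was left out (adjusted p = 0.0705, 0.0777 and 0.0894, limma).

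The other 3 regulators did not pass the test as deposited. *Srebf1* was at 66.5, 61.7 and 62.8 FPKM in controls and at 63.4, 59.0 and 60.9 FPKM in deficient libraries, with a log2 fold change of -0.06 (95% interval -0.16 to 0.04, adjusted p = 0.269, limma) that was 0.04 after median-ratio scaling. *Scap* was at 58.5, 59.5 and 63.5 FPKM in controls and at 62.8, 60.4 and 60.1 FPKM in deficient libraries, a log2 fold change of 0.01 (-0.08 to 0.11, adjusted p = 0.792, limma). For both genes the groups overlapped. *Stard4*, which encodes a carrier that moves cholesterol between membranes, was at 15.9, 13.6 and 16.0 FPKM in controls and at 13.8, 13.4 and 13.6 FPKM in deficient libraries. Control library 2 lay among the deficient libraries, and the log2 fold change of -0.14 (adjusted p = 0.115, limma) passed the test only when that library was left out (-0.22, adjusted p = 0.0150).

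Ratios of a pair of genes within a library do not depend on the scaling between libraries. The ratio of *Insig1* to *Srebf2* was 0.588, 0.583 and 0.584 in controls and 0.505, 0.491 and 0.463 in deficient libraries. The groups did not overlap, and the mean log2 ratio differed by -0.27 (exact two-sided permutation p = 0.1, the smallest that 3 libraries against 3 allow, and 0.167 adjusted over the 5 ratios). *Insig1* was lower and *Srebf2* higher in every deficient library, so this lack of overlap and its p follow from values given above. They are no separate result. The ratio of *Srebf1* to *Srebf2* was 0.795, 0.741 and 0.742 in controls and 0.702, 0.626 and 0.647 in deficient libraries, again without overlap (difference -0.21, exact permutation p = 0.1, adjusted 0.167). *Insig1* to *Scap* was 0.840, 0.816 and 0.779 against 0.727, 0.766 and 0.724, with a difference of -0.13 and the same exact p. This design cannot take any of these ratios below an exact p of 0.1. These 3 ratios were thus lower in every deficient library, and they are not independent, since both ratios to *Srebf2* share that gene and both ratios of *Insig1* share that one.

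**Figure D2:**
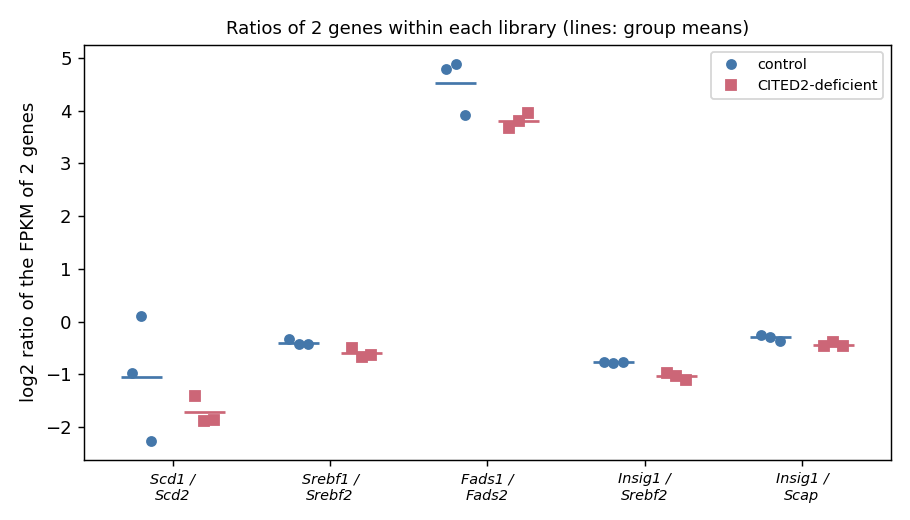
Log2 ratios of the FPKM of 2 genes within each library, for 5 pairs, with circles for the 3 control libraries, squares for the 3 CITED2-deficient libraries and lines for the group means. The groups are apart for *Srebf1* to *Srebf2*, *Insig1* to *Srebf2* and *Insig1* to *Scap*, and overlap for *Scd1* to *Scd2* and *Fads1* to *Fads2*.

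None of the 7 genes of the mevalonate steps passed the test, with 2 positive and 5 negative log2 fold changes from -0.30 to 0.11 as deposited and 3 positive after median-ratio scaling. The summed level of the 7 was 59.0 to 65.8 FPKM in controls and 58.1 to 60.4 FPKM in deficient libraries. *Acat2*, the cytosolic thiolase that joins the first acetyl units, came closest. It was at 3.67, 4.15 and 5.02 FPKM in controls and at 2.98, 3.17 and 3.62 FPKM in deficient libraries. All deficient libraries lay below the controls, the nearest pair being 3.62 and 3.67 FPKM, and the log2 fold change was -0.30 (95% interval -0.57 to -0.04, adjusted p = 0.0563, limma). Its adjusted p was 0.0323 without control library 1 (-0.39) and 0.187 without control library 3 (-0.21).

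*Hmgcs1*, the enzyme that forms the precursor of mevalonate, had a mean of 20.2 ± 2.26 FPKM in controls and 20.7 ± 0.283 FPKM in deficient libraries (SD, n = 3), a log2 fold change of 0.04 (95% interval -0.12 to 0.21). *Mvk* and *Pmvk*, the kinases that follow, had log2 fold changes of -0.13 and -0.11, and *Mvd*, the decarboxylase that yields isopentenyl diphosphate, had -0.05. *Idi1*, the isomerase, was at 6.47 ± 0.623 against 7.08 ± 0.758 FPKM. The groups overlapped for all 5 of these genes. *Fdps*, which joins the isoprene units to farnesyl diphosphate, rested on only 17 to 41 fragments per library and had a log2 fold change of -0.23 with a 95% interval of -0.62 to 0.17, so that a fall of 0.5 log2 units lies inside the interval at this depth. In addition, 26.7% of its exonic bases are shared with *Gm43738* on the same strand, and its values are uncertain for that reason.

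Of the 11 genes from squalene to cholesterol, *Tm7sf2* fell and *Msmo1* rose. *Tm7sf2* (ENSMUSG00000024799, chr19:6062821-6068373, minus strand) encodes a sterol reductase that acts just after lanosterol demethylation. It was at 7.50, 6.96 and 6.94 FPKM in controls and at 5.10, 5.12 and 5.0 FPKM in deficient libraries. The groups were far apart for the spread within each, with means of 7.13 ± 0.315 and 5.08 ± 0.0652 FPKM (SD, n = 3). The log2 fold change was -0.42 ± 0.07 (SE, adjusted p = 0.00115, limma), the largest in size among the members past the threshold, and -0.33 after median-ratio scaling. *Vps51* shares 12.1% of the exonic bases of *Tm7sf2* on the same strand, which leaves part of its value uncertain. The FPKM of *Tm7sf2* also could not be turned back into whole fragments.

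*Msmo1* (ENSMUSG00000031604, chr8:64718139-64733792, minus strand), the methylsterol oxidase that starts removal of the ring methyl groups, was at 30.6, 30.6 and 28.5 FPKM in controls and at 32.1, 32.6 and 33.5 FPKM in deficient libraries. The groups did not overlap. Its log2 fold change was 0.13 ± 0.05 (SE, adjusted p = 0.0403, limma) and 0.23 after median-ratio scaling (adjusted p = 0.00335). On the deposited scale the call was lost when any 1 library other than control library 2 was left out, with adjusted p-values of 0.0557 to 0.135 (limma).

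The other 9 genes of these steps did not pass the test as deposited. *Lss*, the cyclase that makes lanosterol, was higher in every deficient library (7.07 ± 0.337 against 7.69 ± 0.349 FPKM, SD, n = 3), at 0.11 log2 units (adjusted p = 0.237, limma). *Cyp51*, the lanosterol demethylase, was lower in every deficient library (20.8 ± 0.977 against 18.8 ± 0.662 FPKM), at -0.14 log2 units (adjusted p = 0.0559, limma) that was -0.04 after median-ratio scaling. *Sc5d*, a sterol desaturase, and *Dhcr7*, the reductase of the last step to cholesterol in one branch, were also lower in every deficient library, at -0.13 and -0.10 log2 units, and *Dhcr7* was at 0.001 after median-ratio scaling. *Sqle*, the squalene oxidase that is often taken as a rate-limiting step, was at 15.0 ± 0.148 FPKM in controls and 15.4 ± 0.495 FPKM in deficient libraries, and its 95% interval ran from -0.08 to 0.15 log2 units. *Fdft1*, which makes squalene, and *Nsdhl*, a dehydrogenase of the demethylation complex, had log2 fold changes of 0.18 and 0.14, with overlapping groups. *Hsd17b7*, its partner reductase, and *Ebp*, the sterol isomerase, had -0.02 and -0.05, and both were positive after median-ratio scaling. As deposited, 5 of the 11 genes were positive and 6 negative, and the summed level of the 11 genes was 168 to 172 FPKM in controls and 167 to 169 FPKM in deficient libraries. For *Fdft1*, 18.3% of the exonic bases lie opposite *Ctsb*, and no source used here gives whether the counting used strand.

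**Figure D3:**
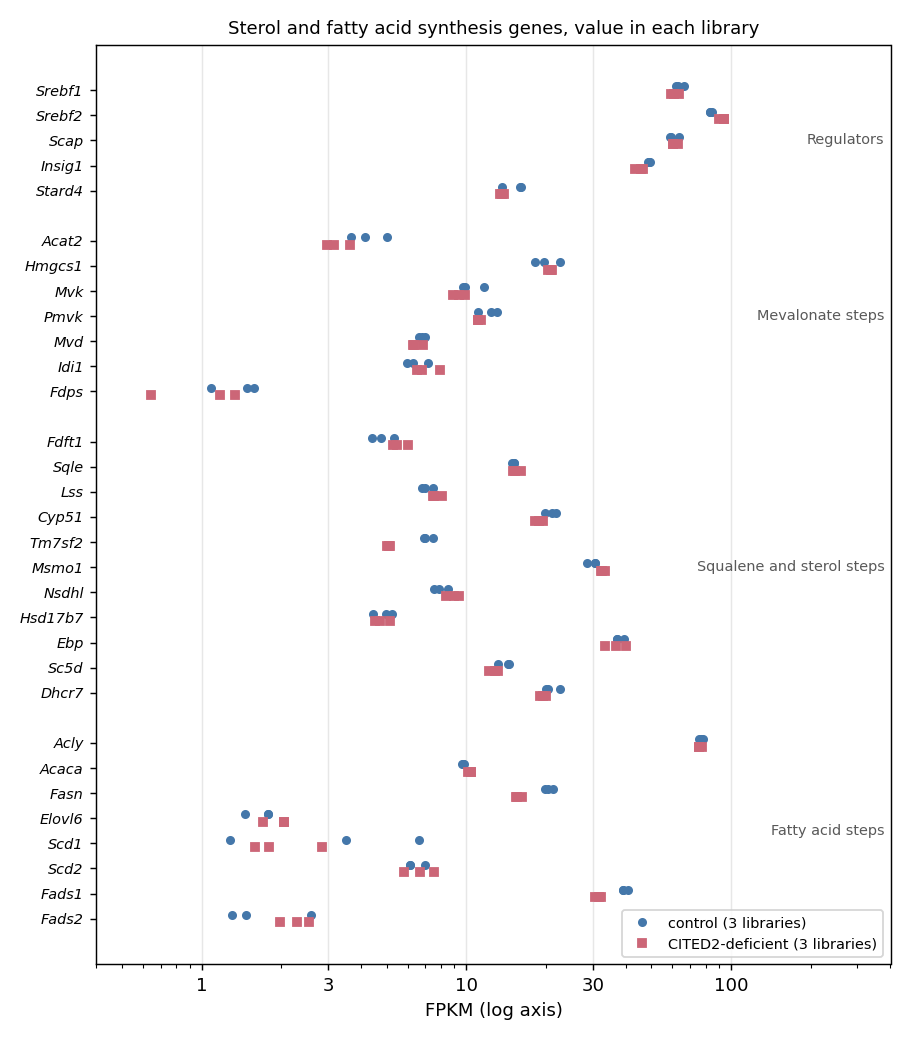
FPKM of each of the 31 genes in each library on a log axis, by role, with circles for the 3 control and squares for the 3 CITED2-deficient libraries. The groups lie apart for *Tm7sf2*, *Fasn* and *Fads1*, nearly coincide for *Acly* and *Sqle*, and are widest in the controls for *Scd1* (1.28 to 6.59 FPKM).

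Of the 8 fatty acid genes, *Fasn* and *Fads1* fell and none rose as deposited. *Fasn* (ENSMUSG00000025153, chr11:120805846-120824547, minus strand), the synthase that builds palmitate, was at 19.8, 21.3 and 20.4 FPKM in controls and at 16.2, 15.4 and 15.5 FPKM in deficient libraries. All 3 deficient libraries were below all controls, with means of 20.5 ± 0.744 and 15.7 ± 0.458 FPKM (SD, n = 3). The log2 fold change was -0.37 ± 0.05 (SE, adjusted p = 0.000323, limma), and -0.27 after median-ratio scaling (adjusted p = 0.00232). *Fads1* (ENSMUSG00000010663, chr19:10182888-10196877, plus strand), a front-end desaturase in the synthesis of arachidonate and other polyunsaturated fatty acids, was at 40.6, 38.9 and 39.0 FPKM in controls and at 32.3, 31.7 and 30.7 FPKM in deficient libraries. Its groups did not overlap either, and the log2 fold change was -0.31 ± 0.04 (SE, adjusted p = 0.000215, limma) as deposited and -0.21 after median-ratio scaling. Both calls were kept with each library left out in turn, and in the fit with 1 control, without control libraries 1 and 2. The stromal sum was higher than in any control in all 3 deficient libraries, and its part was not tested.

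The enzymes that supply *Fasn* with substrate did not pass the test as deposited. *Acly*, which makes cytosolic acetyl-CoA from citrate, was at 77.0 ± 1.11 FPKM in controls and 76.3 ± 1.05 FPKM in deficient libraries (SD, n = 3), and its log2 fold change of -0.01 had a 95% interval of -0.08 to 0.06. It was the second most abundant member after *Srebf2*. *Acaca*, the carboxylase that makes malonyl-CoA, was at 9.80, 9.68 and 9.62 FPKM in controls and at 10.4, 10.1 and 10.4 FPKM in deficient libraries, without overlap, at 0.08 log2 units (adjusted p = 0.286, limma). After median-ratio scaling *Acly* was at 0.09 and *Acaca* at 0.17, and both then passed the test as higher. *Elovl6*, which lengthens palmitate, was low at 1.67 ± 0.189 and 1.93 ± 0.202 FPKM, with overlapping groups. The summed level of the 8 genes was 157 to 163 FPKM in controls and 144 to 152 FPKM in deficient libraries.

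The stearoyl-CoA desaturases and *Fads2* did not pass the test, and the values of *Scd1* and *Fads2* were spread widely over the controls. *Scd1* was at 3.52, 6.59 and 1.28 FPKM in the 3 controls and at 2.84, 1.79 and 1.59 FPKM in the deficient libraries, so the controls alone spanned the whole range (coefficient of variation 70.3%). Its log2 fold change of -0.50 had a 95% interval of -1.33 to 0.34 (adjusted p = 0.289, limma). *Fads2*, the other front-end desaturase, was at 1.47, 1.30 and 2.59 FPKM in controls and at 2.53, 2.29 and 1.98 FPKM in deficient libraries, a log2 fold change of 0.25 (adjusted p = 0.257, limma). The 6 adipocyte markers were at 7.64, 11.3 and 0.154 FPKM in the same 3 controls, the order in which *Scd1* was high and *Fads2* low. Without control library 3, *Scd1* was at -0.95 log2 units (adjusted p = 0.0157) and *Fads2* at 0.45 (adjusted p = 0.0303, limma). Without control libraries 1 and 2 in its place, *Scd1* was at 0.41 (adjusted p = 0.255) and *Fads2* at -0.14 (adjusted p = 0.559, limma), so the sign of both rests on which controls are kept.

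*Scd2*, the desaturase isoform that was the more abundant in all libraries except control library 2, was at 6.96, 6.13 and 6.13 FPKM in controls and at 7.56, 6.66 and 5.82 FPKM in deficient libraries. It did not follow the adipocyte sum in the controls, and its log2 fold change was 0.05 (95% interval -0.17 to 0.27). The ratio of *Scd1* to *Scd2* was 0.506, 1.07 and 0.208 in controls and 0.376, 0.270 and 0.273 in deficient libraries (difference of the log2 means -0.68, exact permutation p = 0.4). That of *Fads1* to *Fads2* was 27.6, 29.8 and 15.1 in controls and 12.7, 13.9 and 15.5 in deficient libraries (difference -0.73, exact permutation p = 0.2). Control library 3 lay among or beside the deficient libraries in both ratios. *Scd1*, *Scd2*, *Fads1* and *Fads2* were also among the 5 members whose FPKM could not be turned back into whole fragments, so fragments may have been divided among transcripts or genes.

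**Figure D4:**
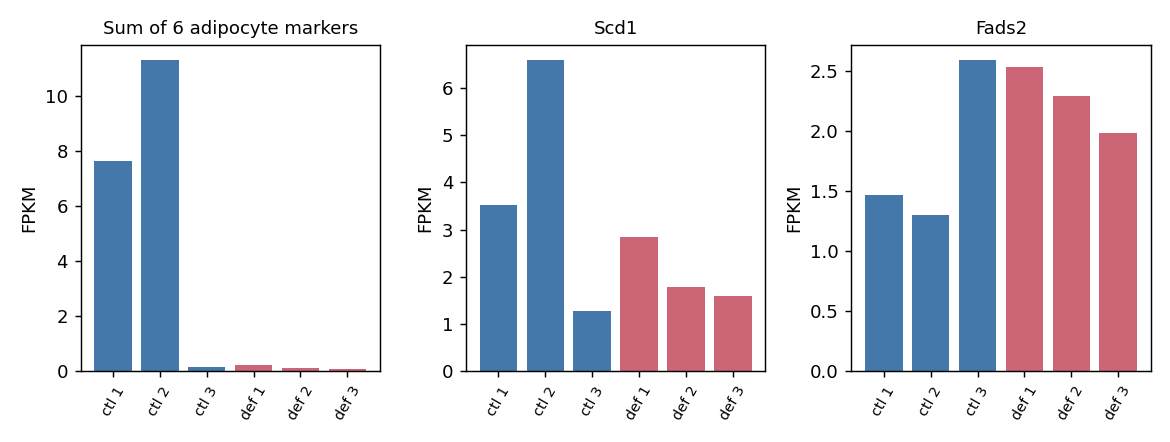
FPKM in each library of the sum of 6 adipocyte markers, *Scd1* and *Fads2*, with control libraries (ctl) in blue and CITED2-deficient libraries (def) in red. Control libraries 1 and 2 carry the adipocyte signal (7.64 and 11.3 FPKM), the 2 highest *Scd1* values (3.52 and 6.59 FPKM) and the 2 lowest *Fads2* values (1.47 and 1.30 FPKM).

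Genes around the pathway, in lists drawn up with earlier results of these data known, included some with larger differences than any member past the threshold. Of 10 genes of SREBP processing and sterol sensing, 2 rose and 4 fell, or 60% beside 51.3% of all genes tested (median log2 fold change -0.01, beside -0.10 for all genes tested). The largest were *Nr1h3*, a liver X receptor that activates *Srebf1* (11.7 ± 0.447 against 20.3 ± 2.37 FPKM, log2 fold change 0.74, adjusted p = 6.32e-05, limma), and *Ube2g2*, an enzyme of protein degradation at the endoplasmic reticulum (-0.32, adjusted p = 5.95e-05). The other liver X receptor, *Nr1h2*, was the more abundant and fell (122 ± 2.34 against 112 ± 4.75 FPKM, log2 fold change -0.13, adjusted p = 0.0198, limma). After median-ratio scaling *Nr1h2* was at -0.02 (adjusted p = 0.651, limma). It was named after its values were seen. *Srebf1* itself, described above, had a log2 fold change of -0.06 that did not pass the test. After median-ratio scaling, 4 of these 10 were higher and 1 was lower.

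Among 8 genes of oxysterol synthesis and removal, 3 averaged at least 1 FPKM in both groups. Of these 3, 1 rose and 1 fell (66.7% called beside 51.3% of all genes tested, median -0.10). *Ch25h*, the hydroxylase that makes an oxysterol known to hold SREBPs in the endoplasmic reticulum, was at 0.157, 0.30 and 0.156 FPKM in controls and at 1.37, 1.87 and 2.67 FPKM in deficient libraries. It reached the filter on low values only through the deficient group, so its levels are given as a description with no test. *Abcg1*, a sterol exporter, rose by 0.77 log2 units, with every library of the deficient group at 160 FPKM or more against at most 99.6 FPKM in controls. The gene that fell was *Cyp27a1*, the mitochondrial sterol hydroxylase (139 ± 1.85 against 96.9 ± 2.40 FPKM, log2 fold change -0.52), singled out after its values were seen. *Abca1*, another sterol exporter, was the gene of these 3 that did not pass the test. It was at 137 ± 5.20 against 128 ± 4.06 FPKM, with every deficient library below every control. Its log2 fold change was -0.10 (adjusted p = 0.0549, limma), and 0.004 after median-ratio scaling.

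Of 7 tested genes of cholesterol esterification, uptake into the endoplasmic reticulum and lysosomal release, 4 rose and 2 fell (85.7% called beside 51.3% of all genes tested, median 0.07). *Npc2*, which lifts cholesterol from the lysosome lumen, was at 476 ± 9.53 FPKM in controls and 908 ± 4.74 FPKM in deficient libraries (log2 fold change 0.93, adjusted p = 7.55e-09, limma), and *Stard3*, a late endosomal sterol carrier, rose by 0.72. In the isoprenoid branches that start at farnesyl diphosphate, 1 of 9 rose and 1 fell (22.2% called beside 51.3% of all genes tested, median -0.05). These were *Coq2*, of ubiquinone synthesis (0.74), and *Fnta*, the shared subunit of the farnesyl and geranylgeranyl transferases (-0.73).

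Of 6 tested genes in a list of other enzymes linked to sterol synthesis, 5 fell and none rose as deposited (83.3% called, median -0.39). Beside them, 51.3% of all genes tested were called and 34.6% were lower, with a median of -0.10. After median-ratio scaling the counts of the list were the same, beside 21.3% of all genes lower. The largest falls in the list were *Acat1* (-0.74), a mitochondrial thiolase of ketone body and isoleucine breakdown, and *Mmab* (-0.52), an enzyme of cobalamin metabolism, neither of which is a step of sterol synthesis. *Lbr*, picked out after its values were seen because it carries the same sterol reductase activity as *Tm7sf2*, was at 39.4, 38.0 and 41.5 FPKM in controls and at 31.5, 29.1 and 30.4 FPKM in deficient libraries. Its log2 fold change of -0.37 (adjusted p = 0.000201, limma) stood beside the -0.42 of *Tm7sf2*, and in both genes the groups did not overlap.

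Of 19 tested genes of other fatty acid synthesis and elongation, 3 rose and 5 fell (42.1% called beside 51.3% of all genes tested, median -0.035). *Tecr*, the reductase that completes each round of elongation, was at 157, 159 and 153 FPKM in controls and at 106, 106 and 109 FPKM in deficient libraries (log2 fold change -0.54, adjusted p = 7.59e-07, limma). *Acsl3*, an acyl-CoA synthetase of lipid droplets, fell by 0.40 on the log2 scale. Over all 6 lists, leaving out *Ch25h*, 11 of 54 genes rose (20.4%) and 18 fell (33.3%), beside 16.7% and 34.6% of all genes tested, so the lists as a whole were near the background. The stromal and granulocyte markers given above moved with genotype beside each of these lists, and their part was not tested.

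**Figure D5:**
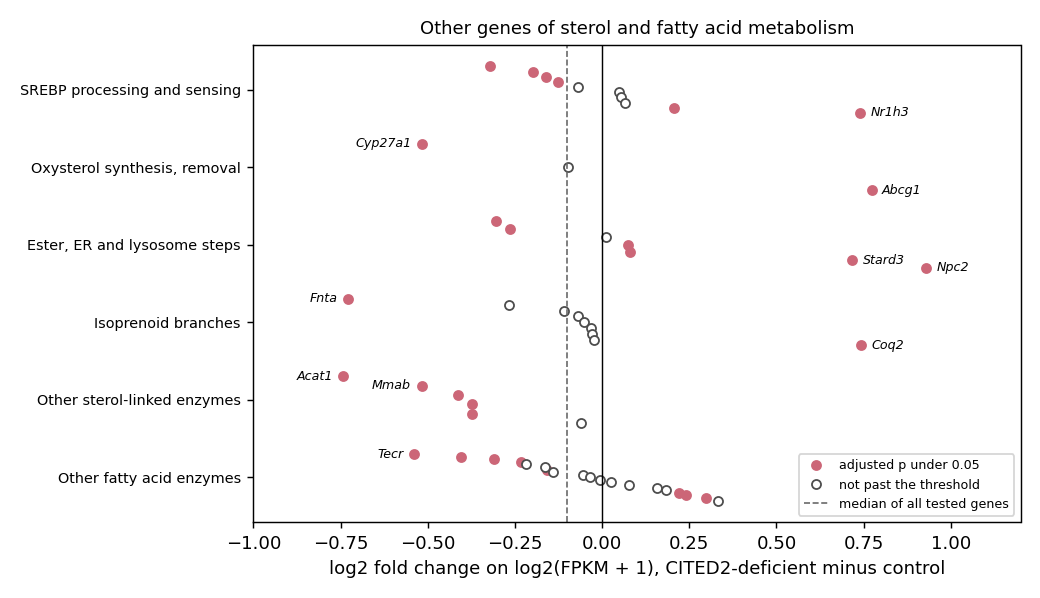
Log2 fold change on log2(FPKM + 1), CITED2-deficient minus control, of the tested genes in 6 lists around the pathway, filled where the adjusted p was under 0.05, with names for those past 0.5 in size and without *Ch25h*, which reached the filter only through the deficient group. *Npc2* lies at 0.93 and *Cyp27a1* at -0.52, and 5 of the 6 other sterol-linked enzymes lie to the left of the median of all genes tested (dashed line, -0.10) with an adjusted p under 0.05. Of all genes tested, 34.6% were lower with an adjusted p under 0.05.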

How the data were processed

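RNA from BMDMs was sequenced as 6 libraries after rRNA removal, and the deposited values are FPKM per gene, which the authors made with STAR, Cufflinks and Cuffdiff on mm10 (submitters' processing notes; versions and the annotation release: not given in the sources used here). The groups come from the sample titles. Values were tested with limma 3.58.1 (R 4.3.3) on log2(FPKM + 1) with a variance trend, over the 11687 genes that averaged 1 FPKM or more, with Benjamini-Hochberg adjustment over all of them and a threshold of 0.05. Cuffdiff was not repeated. A fold change on this scale understates that of low genes. The fit was tested on simulated data.

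Depth was recovered from the FPKM steps with mean transcript lengths of GENCODE vM21, by which 96.1% of 22239 matched genes gave whole fragments within 0.02 in every library, and 26 of the 31 members did. Ratios within libraries were tested by exact permutation (Python 3.11.15, scipy 1.17.1). Gene positions are from GENCODE and promoters from RefSeq. Protein sequences were not used here.

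The members, lists and tests were chosen with earlier results of these data known. All members are named, with library values for all regulators and the members past the threshold, and, from the other lists, the 2 largest changes past the threshold. Some further genes of those lists, and library values of other genes, were added after they were seen. Alternatives covered pseudocount, filter, scaling, variance model, replicate block, voom on recovered fragments and leaving out libraries. The one without control libraries 1 and 2 was added after seeing the data.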

Additional observations from a re-analysis of the deposited data

How the results depend on the processing

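Median-ratio scaling moved the most values. It raised the members called to 11, those higher to 8 and the members' median log2 fold change to 0.056, and brought the all-gene median to -0.007 and the count of all genes lower to 2490. Quantile normalization gave 5 members higher and an all-gene median of -0.050. The median of all 55 tested genes in the 6 lists around the pathway, Ch25h included, -0.055 as reported, was 0.040 and 0.011 under these scalings. Log2 fold changes that reversed under median-ratio scaling were Srebf1 (0.043), Mvd (0.037), Hsd17b7 (0.065), Ebp (0.056), Dhcr7 (0.001) and Acly (0.091), and under quantile normalization Mvd (0.024), Hsd17b7 (0.047) and Acly (0.013). Without a filter the all-gene median was -0.026 and 1 member was higher, and without a variance trend 1 member was higher. Leaving out 1 library in turn gave 1 to 2 members higher, and put log2 fold changes on both sides of 0 for Scap (-0.009 to 0.049), Hmgcs1 (-0.024 to 0.126), Hsd17b7 (-0.075 to 0.022), Ebp (-0.108 to 0.021) and Scd2 (-0.032 to 0.131). Without control libraries 1 and 2 no member was higher (0), 3758 of all genes were called, 2364 of them lower, and Scap (-0.055), Hmgcs1 (-0.120), Idi1 (-0.020), Acly (0.008), Scd1 (0.412) and Fads2 (-0.139) reversed. The cause of these shifts was not tested. Voom on recovered fragments called 6178 genes and 7 members, the 6 as reported and Acat2. In that fit the fragments of Tm7sf2 and Fads1 were rounded from values that were not whole.

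Same-numbered libraries had correlated deviations of only 0.00784 to 0.0402 and 3 of 6 libraries correlated best with their own number, so the numbers were not taken as pairs. With the replicate block, 5 members were called, 1 higher, with Insig1 and Msmo1 lost and Acat2 gained, and 1895 genes were higher and 3813 lower in all. Fdps rested on 17 to 41 fragments per library, and depth was not recovered for Scd1 or Fads2, whose standard errors (0.369 and 0.175) were above that of Fdps (0.173).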
